A study of Mus musculus and Rattus norvegicus with 36 samples.

Results

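The regional comparison described here sets oligodendrocyte precursor cells (OPCs) from hippocampus against OPCs from medial prefrontal cortex (mPFC) in mice that had lost Baf155 in the precursor lineage. It uses 6 of the 36 samples of the series, 3 knockout hippocampus libraries and 3 knockout mPFC libraries. A gene was a member when its value was 10 or more in at least 3 of these 6 libraries, which held for 13536 of the 18464 genes with values. The remaining 4928 genes were not tested. The third-highest value was 10.1 for the gene just inside this limit and 9.96 for the gene just outside it.

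The knockout animals carried Pdgfralpha-CreER with Baf155-flox/flox, and the controls were littermates with Baf155-flox/flox and no Cre. Cre-ER is a recombinase that acts once tamoxifen has been given, and here it is under the promoter of the PDGF receptor alpha gene, so recombination is aimed at OPCs. Age, sex and the tamoxifen schedule are not given in the sources used here. The cells were taken from perfused brain, dissociated with papain, captured by immunopanning (binding to an antibody-coated dish) and lysed on the dish. The tissue is labelled mPFC, while the protocol speaks of cortex. Polyadenylated RNA was read in single 50-base reads. Nothing in the labels says that the 3 libraries of a group came from separate animals, so p-values measure the spread between these libraries, which may be technical. Hippocampus libraries carry the numbers 4 to 6 and mPFC libraries the numbers 1 to 3, as in the sample titles.

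OPCs are the dividing, migratory cells that give rise to myelinating oligodendrocytes and that persist across the adult brain. They arise from several germinal zones of the embryonic forebrain, ventral and dorsal, and forebrain cells of different origin keep traces of the transcription factors that patterned those zones. Baf155, encoded by Smarcc1, is a core subunit of the BAF complex, which moves nucleosomes with the energy of ATP and so sets which regulatory DNA is open.

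Each value is a read count divided by 1 factor per library, so it can be compared between libraries and not between genes of different length. The 6 libraries held 19010442 to 22128687 reads, and 1 read was worth 0.905 to 1.06 in the value. A log2 difference is the hippocampus mean minus the mPFC mean of log2(value + 1), given with its standard error (SE) over 3 libraries a group. A gene was called when its limma p, adjusted by Benjamini-Hochberg over all 13536 genes, was below 0.05. An exact permutation of 3 against 3 libraries cannot give a p below 0.1.

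Smarcc1 (chromosome 9, 110117708 to 110240178, GRCm38) was read at 2378, 2368 and 2649 in mPFC and 1631, 1569 and 1510.2 in hippocampus. The hippocampus libraries were the lower ones, with no overlap, at a log2 difference of -0.65 ± 0.06 (adjusted p = 0.000509), -0.60 without library 3. In the control libraries its mean value was 3880.1 for those labelled mPFC and 4462 for those labelled hippocampus, so every knockout library was below both control means. The value covers the whole gene and does not separate reads from inside and outside the floxed segment. Because immunopanned samples are bulk samples, fewer cells of a type and less RNA per cell cannot be told apart here or in any result that follows. The Y-linked genes Ddx3y, Eif2s3y, Kdm5d and Uty were read in all 6 libraries, between 324 and 633. With all 6 libraries Kdm5d was called, with a log2 difference of -0.31 ± 0.084 (adjusted p = 0.0421), -0.23 without library 3, and the other 3 were not. Without library 3 Ddx3y was called higher in hippocampus, at 0.27 (adjusted p = 0.00397). After a correction for GC content and transcript length, Uty (-0.35) and Eif2s3y (-0.34) were called higher in mPFC. In the control libraries labelled mPFC the means were 98.2 for Ddx3y, 138 for Eif2s3y, 93.1 for Kdm5d and 176 for Uty. In those labelled hippocampus they were 189, 271, 179 and 212, so these means were all below the knockout values. Whether the groups differed in the sex of the animals, which bears on every knockout minus control value, was not tested.

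Knockout mPFC library 3 stood apart from its replicates. The chi-square of its counts against libraries 1 and 2, divided by its degrees of freedom, was 13.4 and 16.0, against 1.78 to 2.48 for the 4 other pairs of replicates in the knockout groups. Over the 2129 genes called without it and at least 0.3 apart on the log2 scale, it lay between the groups, at a median of 0.568 of the way from mPFC libraries 1 and 2 to the hippocampus mean. Its deviation followed the base composition of the transcript. Across 13314 genes with a transcript model, library 3 minus libraries 1 and 2 had a correlation of -0.482 with GC content, as a description across genes that share libraries. Hippocampus minus libraries 1 and 2 had -0.442, and the regional difference with all 6 libraries -0.319. In the quintile of genes with the lowest GC (median 41.8%), 16.8% were called higher in hippocampus and 1.39% higher in mPFC. In the quintile with the highest GC (median 58.3%), these shares were 1.54% and 6.68%. Genes of high or low GC therefore carry this composition with them in every list below, and the counts of each list are also given without library 3 and after a correction for GC and transcript length.

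**Figure D1:**
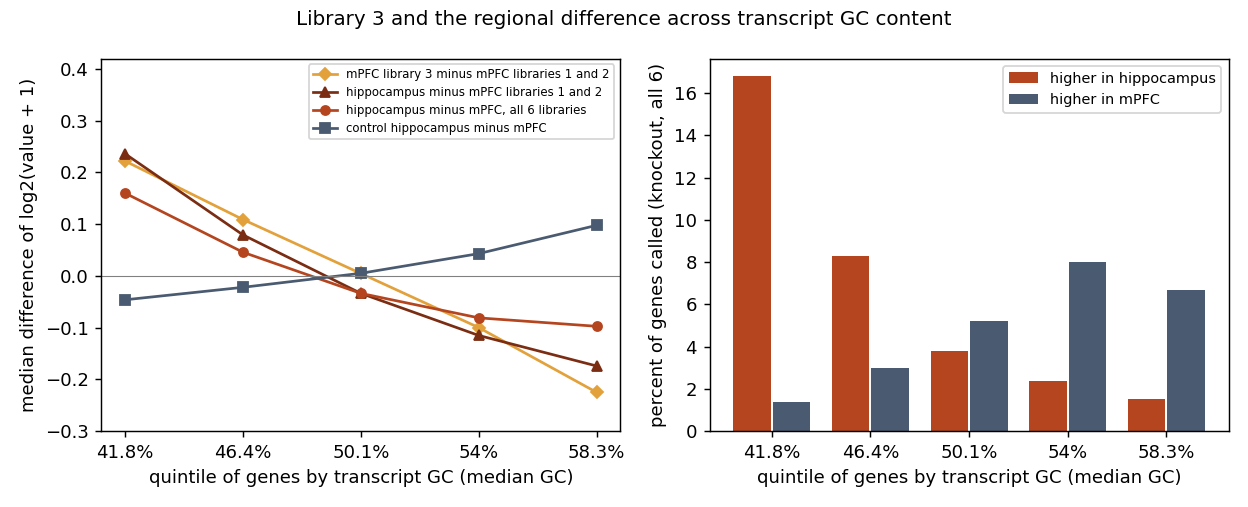
Left, the median difference of log2(value + 1) in each quintile of the genes by transcript GC content, for mPFC library 3 against its replicates, for hippocampus against mPFC with and without library 3, and for the control libraries. Right, the percent of genes in each quintile called in the knockout comparison with all 6 libraries, from 16.8% higher in hippocampus in the lowest quintile to 1.54% in the highest.

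The control libraries bear on every statement about genotype. The control regional difference, which shares no library with the knockout one, called 3523 of 13682 genes (25.7%), of which 0.526% of all tested genes were at least 2-fold higher in labelled hippocampus and 1.20% in labelled mPFC. Of the 572 genes called in both genotypes, 147 differed in the same direction and 425 in opposite directions. The regional differences of the 2 genotypes had a Pearson correlation of -0.309 and a Spearman correlation of -0.17 across 13357 genes, as a description. OPCs cultured from either region without treatment, whose tables were normalized separately, gave a further set of values. Among the 108 knockout calls of at least 2-fold with a culture value, the culture ratio had the same sign in 92, whereas among 137 such control calls it did in 19. Over all tested genes with a culture value it had the sign of the knockout difference in 7971 of 12963. The control libraries are therefore written below as labelled mPFC or labelled hippocampus. Why the control labels run against the other libraries was not tested, and every knockout minus control value below rests on those labels.

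With all 6 libraries, 1533 of 13536 genes were called, 11.3%. There were 886 genes higher in hippocampus (6.55%) and 647 higher in mPFC (4.78%). Differences of at least 2-fold were more frequent among genes higher in mPFC, with 81 (0.598%) against 31 (0.229%) higher in hippocampus. Without mPFC library 3 the calls rose to 6314 (46.6%), with 3149 higher in hippocampus (23.3%) and 3165 higher in mPFC (23.4%), and 77 (0.569%) and 91 (0.672%) of them reached 2-fold. Of the 1533 calls, 886 (6.55%) and 646 (4.77%) were also called in the same direction without library 3. After the GC and length correction 2055 genes were called (15.4% of 13314), 1023 higher in hippocampus (7.68%) and 1032 higher in mPFC (7.75%). The knockout groups did not overlap in 2278 genes with hippocampus higher (16.8%) and 2211 with mPFC higher (16.3%), most of which were not called. A pair of counts given for a list below without library 3 or after that correction is for members higher in hippocampus first and higher in mPFC second. Such a pair is to be read beside the shares of all genes. These were 23.3% and 23.4% without library 3, and 7.68% and 7.75% after the correction. Calls rose over all genes without library 3, so a larger count there is not in itself a stronger result for a list. Leaving out any of the other 5 libraries left 339 to 586 calls. Of the 142 genes named below or above as called, 81 kept the call without each single library, and 61 lost it, with the same direction, without at least 1 of those 5.

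Knockout libraries from the 2 regions differed in transcription factors that mark where forebrain cells come from. Whether this RNA came from OPCs or from other cells in the bulk samples was not tested. The called factors of the ventral forebrain (subpallium), the source of cortical interneurons and of early OPCs, were higher in mPFC, and most called factors of the medial pallium were higher in hippocampus. Dlx1 and Dlx2, paired homeobox genes that specify ganglionic eminence and interneuron fate, lie side by side on chromosome 2. Dlx1 (71528113 to 71533981) was read at 150.5, 167 and 150.0 in mPFC and 33.5, 24.4 and 35.6 in hippocampus. Dlx2 (71543408 to 71546754) was read at 57.0, 44.4 and 39.5 in mPFC and 9.05, 11.7 and 7.90 in hippocampus. Both were higher in all 3 mPFC libraries, at log2 differences of -2.30 ± 0.16 (adjusted p = 9.56e-05), -2.33 without library 3 for Dlx1, and -2.19 ± 0.24 (adjusted p = 0.0011), -2.30 without library 3 for Dlx2.

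In the subpallial list, 10 of 18 members passed the filter on low values, and 7 of these 10 were called, all higher in mPFC. Sp9 and Dlx5 passed the filter through mPFC libraries alone, so the count describes the members that passed and is not support for a direction of the list. The other 8 members were under the filter or had no value. The counts were 0 and 7 without library 3, and 1 and 7 after the GC and length correction. Sp9, a zinc finger factor of the striatal and interneuron lineages, was read at 40.3, 42.5 and 31.4 in mPFC and 3.62, 5.30 and 3.95 in hippocampus, with a log2 difference of -2.89 ± 0.28 (adjusted p = 0.000637), -3.02 without library 3. Six3, a homeobox factor of striatal precursors, was read at 107, 117 and 117 in mPFC and 37.1, 21.2 and 29.6 in hippocampus, with a difference of -1.95 ± 0.20 (adjusted p = 0.00077), -1.93 without library 3. In each of these genes the groups did not overlap, and hippocampus was low in all 3 libraries. Gsx2, a determinant of the lateral ganglionic eminence, differed by -0.65 ± 0.11 (adjusted p = 0.00726), -0.68 without library 3, and Dlx5 by -1.46 ± 0.36 (adjusted p = 0.0314), -1.47 without library 3. Gsx1 was at 1060.3, 1076 and 899.8 in mPFC and 1122, 1019 and 1124 in hippocampus and was not called with all 6 libraries (adjusted p = 0.395), but was called higher in hippocampus after the GC and length correction, at 0.22 (adjusted p = 0.0122).

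Among pallial and telencephalic patterning factors, 21 of 27 members were tested, 3 were called higher in hippocampus and 3 higher in mPFC, 6 and 5 without library 3, and 3 and 5 after the GC and length correction. Neurod1 and Tbr1 passed the filter on low values through hippocampus libraries alone. Nr2f2 (COUP-TFII), a nuclear receptor of the caudal forebrain, was read at 136, 125 and 151 in mPFC and 389, 428 and 363 in hippocampus. All 3 hippocampus libraries lay above all mPFC libraries, at a log2 difference of 1.51 ± 0.10 (adjusted p = 7.58e-05), 1.58 without library 3. Neurod1, a factor of differentiating excitatory neurons such as dentate granule cells, was read at 0.984, 2.96 and 2.03 in mPFC and 24.4, 31.8 and 22.7 in hippocampus. It was near the limit of detection in mPFC and differed by 3.23 ± 0.38 (adjusted p = 0.00147), 3.27 without library 3. Tcf7l2, a Wnt effector that is also a mark of premyelinating oligodendrocytes, differed by 0.49 ± 0.062 (adjusted p = 0.00209), 0.52 without library 3. In the opposite direction, Sp8, a zinc finger factor of rostral cortex and of interneurons, was read at 95.4, 92.8 and 78.0 in mPFC and 20.8, 22.3 and 20.7 in hippocampus. It was low in all 3 hippocampus libraries, with a difference of -2.01 ± 0.16 (adjusted p = 0.000164), -2.09 without library 3. Meis2, a homeobox factor of striatal and olfactory precursors, differed by -0.36 ± 0.052 (adjusted p = 0.00431), -0.32 without library 3, and the LIM-only factor Lmo4 by -0.30 ± 0.063 (adjusted p = 0.0188), -0.33 without library 3.

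Factors used as hippocampal or medial pallial markers gave 7 calls higher in hippocampus and 1 higher in mPFC among 15 tested of 21 members (46.7% and 6.7%). Without library 3 these counts were 10 and 1, and after the GC and length correction 8 and 2. Msx1 passed the filter on low values through hippocampus libraries alone. Msx1, a homeobox gene of the dorsal midline induced by BMP, was read at 9.84, 7.90 and 6.08 in mPFC and 35.3, 60.4 and 54.3 in hippocampus, a log2 difference of 2.50 ± 0.28 (adjusted p = 0.00111), 2.34 without library 3. Zic1, a zinc finger factor of the dorsomedial forebrain, was read at 124, 106 and 110.4 in mPFC and 221, 219 and 224 in hippocampus, a difference of 0.96 ± 0.10 (adjusted p = 0.000715), 0.95 without library 3. Its relative Zic2 differed by 0.56 ± 0.085 (adjusted p = 0.00513), 0.60 without library 3. In the 3 genes the groups did not overlap and hippocampus was the higher one. Dmrta1, a doublesex-related factor of the pallium, differed by 0.60 ± 0.076 (adjusted p = 0.00209), 0.67 without library 3. Prox1, a homeobox gene of dentate granule neurons that oligodendrocyte cells also express, was read at 635, 649 and 769 in mPFC and 882, 899 and 884 in hippocampus, a difference of 0.38 ± 0.077 (adjusted p = 0.0159), 0.47 without library 3. For Prox1 library 3 was the highest of the mPFC libraries and still lay under every hippocampus library. Sox5 differed by 0.31 ± 0.077 (adjusted p = 0.0329), 0.40 without library 3 and Nfia by 0.22 ± 0.051 (adjusted p = 0.0268), 0.24 without library 3, and Nfia was not called after the GC and length correction, where its difference was 0.067 (adjusted p = 0.46). Bcl11a was the member higher in mPFC, at -0.42 ± 0.10 (adjusted p = 0.0282), -0.34 without library 3.

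Several other factors of the telencephalon were not called. Nr2f1, a nuclear receptor of the caudal cortex, was at 1602, 1506 and 1418 in mPFC and 1602, 1594 and 1492 in hippocampus, and the log2 difference of 0.051 ± 0.061 was not called (adjusted p = 0.611). Emx2 (-0.11 ± 0.095), Pax6 (-0.23 ± 0.10) and Tbr1 (0.90 ± 0.29) were not called either, and neither was Lhx2 (-0.12 ± 0.074) with all 6 libraries. Without library 3 Lhx2 was called at -0.20 (adjusted p = 0.00755) and Tbr1 at 0.96 (adjusted p = 0.0399).

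**Figure D2:**
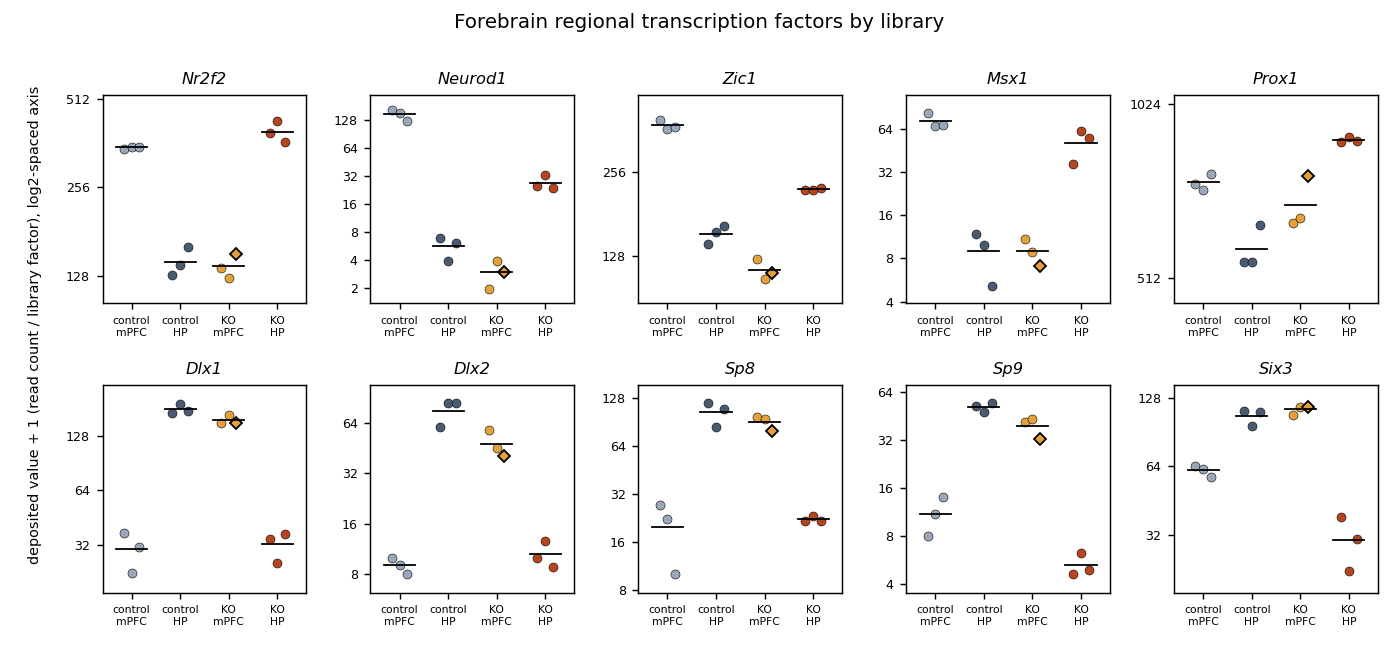
Deposited value + 1 of 10 forebrain transcription factors in each of the 12 acutely isolated libraries, on a log2-spaced axis, by genotype and labelled region. HP is hippocampus, bars are group means, and diamonds mark knockout mPFC library 3. In knockout libraries Nr2f2, Neurod1, Zic1, Msx1 and Prox1 are higher in hippocampus and Dlx1, Dlx2, Sp8, Sp9 and Six3 higher in mPFC, while the control libraries show the reverse order of the labelled regions.

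The libraries labelled control ran the other way for these factors. Dlx1 averaged 29.2 in the libraries labelled control mPFC and 180.0 in those labelled control hippocampus, and Nr2f2 averaged 348 and 142. All 7 called subpallial factors, all 8 called hippocampal field factors and all 6 called pallial factors had the opposite sign in the control regional difference. This counts signs alone. Among the hippocampal field factors the control difference was not called for Dmrta1 (-0.21), Sox5 (-0.077), Nfia (-0.13) and Bcl11a (0.20). Among the pallial factors it was not called for Tcf7l2 (-0.17) and Lmo4 (0.11). In the cultures, whose tables were scaled separately, Dlx1 averaged 304 in mPFC and 48.7 in hippocampus, and Nr2f2 15.8 and 204. The culture sign was that of the knockout comparison in 7 of 7, 5 of 8 and 5 of 6 of these factors, beside 7971 of 12963 over all tested genes, a share near that of 5 of 8.

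Promoters of 4 of these factors are shown because they include genes that were high together in mPFC (Dlx1, Dlx2) or in hippocampus (Nr2f2, Msx1). They are RefSeq sequences of GRCm38.p6, 250 bases before to 50 after the start of the gene, written in the direction of transcription. For Dlx1 the start used by RefSeq for this window lies inside the gene interval given above. Capitals mark the GC box GGGCGG or its reverse complement CCGCCC, the element bound by Sp-family zinc finger factors, the family of Sp8 and Sp9. The intervals are chr2:71529195-71529494 on the plus strand for Dlx1, chr2:71546705-71547004 on the minus strand for Dlx2, chr7:70366697-70366996 on the minus strand for Nr2f2 and chr5:37824536-37824835 on the minus strand for Msx1.
Dlx1: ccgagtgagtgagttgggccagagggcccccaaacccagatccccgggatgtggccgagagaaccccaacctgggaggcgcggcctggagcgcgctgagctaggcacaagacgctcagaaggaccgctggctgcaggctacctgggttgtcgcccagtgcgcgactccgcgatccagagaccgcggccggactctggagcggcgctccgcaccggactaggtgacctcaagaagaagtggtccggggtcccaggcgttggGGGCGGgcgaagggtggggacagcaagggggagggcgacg
Dlx2: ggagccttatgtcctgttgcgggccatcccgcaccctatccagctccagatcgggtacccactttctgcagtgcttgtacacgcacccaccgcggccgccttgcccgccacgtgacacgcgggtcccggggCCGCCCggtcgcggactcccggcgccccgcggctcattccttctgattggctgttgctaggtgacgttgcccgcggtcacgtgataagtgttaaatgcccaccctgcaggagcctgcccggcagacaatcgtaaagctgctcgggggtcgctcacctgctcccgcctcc
Nr2f2: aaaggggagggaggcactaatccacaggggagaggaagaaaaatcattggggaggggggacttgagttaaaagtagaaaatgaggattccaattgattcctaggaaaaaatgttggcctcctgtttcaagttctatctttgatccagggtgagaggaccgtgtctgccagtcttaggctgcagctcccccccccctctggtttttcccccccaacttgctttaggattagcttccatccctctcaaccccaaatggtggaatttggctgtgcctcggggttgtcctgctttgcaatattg
Msx1: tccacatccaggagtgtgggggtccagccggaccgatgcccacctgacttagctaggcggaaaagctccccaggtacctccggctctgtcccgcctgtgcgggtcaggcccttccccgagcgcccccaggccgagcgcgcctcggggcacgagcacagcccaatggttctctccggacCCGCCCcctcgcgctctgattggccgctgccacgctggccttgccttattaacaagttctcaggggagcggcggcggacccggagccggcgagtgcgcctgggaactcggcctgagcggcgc
Dlx1, Dlx2 and Msx1 each held 1 GC box in this window and Nr2f2 none, and 35.91% of the 27025 mouse promoters of this length hold at least 1 on either strand. The core homeodomain letters TAATTA were in none of the 4 windows and in 5.31% of all promoters. GC content of the windows was 69.3% for Dlx1, 66.3% for Dlx2, 49.7% for Nr2f2 and 70% for Msx1.

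Neuronal genes were called in both directions. The list of neuron markers had 17 of 19 members tested, 4 called higher in hippocampus and 6 higher in mPFC, 5 and 8 without library 3, and 5 and 6 after the GC and length correction. Gad1, the enzyme that makes GABA, was read at 296, 298 and 293 in mPFC and 103, 112 and 95.8 in hippocampus, with a log2 difference of -1.50 ± 0.093 (adjusted p = 5.99e-05), -1.51 without library 3. Gad2, its partner enzyme, was read at 53.1, 39.5 and 32.4 in mPFC and 20.8, 11.7 and 13.8 in hippocampus, with a difference of -1.39 ± 0.27 (adjusted p = 0.0147), -1.55 without library 3. Calb2, which encodes the calcium-binding protein calretinin of interneurons, differed by -1.12 ± 0.12 (adjusted p = 0.000985), -1.18 without library 3. These genes were low in all hippocampus libraries without overlap. Slc17a7, the vesicular glutamate transporter of excitatory neurons, was read at 5.90, 3.95 and 2.03 in mPFC and 20.8, 22.3 and 17.8 in hippocampus, a difference of 2.18 ± 0.38 (adjusted p = 0.00884), 1.86 without library 3, and passed the filter on low values through hippocampus libraries alone. Stmn2, a tubulin-binding protein of growing axons, was read at 23.6, 27.7 and 21.3 in mPFC and 57.0, 55.1 and 47.4 in hippocampus, a difference of 1.11 ± 0.18 (adjusted p = 0.00655), 1.02 without library 3. Dcx, a microtubule protein of migrating cells, was at 976, 964 and 1223 in mPFC and 1438, 1407 and 1406 in hippocampus, a difference of 0.43 ± 0.087 (adjusted p = 0.0151), 0.55 without library 3. Camk2a, a kinase of excitatory synapses, was higher in mPFC, at -0.73 ± 0.10 (adjusted p = 0.00383), -0.78 without library 3. The general neuron markers Snap25 and Rbfox3 were not called (adjusted p = 0.478 and 0.137), at 271, 280.5 and 274 in mPFC and 287, 305 and 283 in hippocampus for Snap25, and 51.1, 37.5 and 45.6 in mPFC and 25.3, 25.4 and 40.5 in hippocampus for Rbfox3. The summed level of the list was 16762 to 20229 in mPFC and 19851 to 20288 in hippocampus. The highest mPFC sum was that of library 3, while libraries 1 and 2, at 17013 and 16762, lay under every hippocampus library. The part of neuronal RNA in the regional factors was not tested.

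The genes with the largest differences, among abundant genes called with and without library 3, were led in hippocampus by Bche and in mPFC by Lyz2. Bche (butyrylcholinesterase, which breaks down choline esters) was read at 533, 476 and 649 in mPFC and 1107, 1099.5 and 1036 in hippocampus, a log2 difference of 0.98 ± 0.10 (adjusted p = 0.000835), 1.10 without library 3. Igip differed by 0.84 ± 0.074 (adjusted p = 0.000398), 0.89 without library 3. Padi2, which converts arginine to citrulline in proteins such as myelin basic protein, was read at 410.1, 434 and 418 in mPFC and 781, 742 and 727 in hippocampus, a difference of 0.83 ± 0.062 (adjusted p = 0.00013), 0.83 without library 3. Dixdc1, a Wnt pathway protein, differed by 0.72 ± 0.061 (adjusted p = 0.00028), 0.76 without library 3, and Elavl4, the neuronal RNA-binding protein HuD, by 0.70 ± 0.11 (adjusted p = 0.00606), 0.84 without library 3. For Elavl4 and Bche library 3 was the highest mPFC library. Pllp, a proteolipid of myelin membranes, was read at 1612, 1691 and 1371 in mPFC and 2468, 2552 and 2451 in hippocampus, a difference of 0.68 ± 0.075 (adjusted p = 0.00101), 0.59 without library 3. Eya1, a transcriptional coactivator and phosphatase, differed by 0.67 ± 0.071 (adjusted p = 0.000867), 0.73 without library 3.

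The other members of the 14 higher in hippocampus had log2 differences of 0.62 to 0.67. They were Ttr (transthyretin, a carrier of thyroid hormone made in choroid plexus), Ptpn14 (a tyrosine phosphatase), Neu4 (a sialidase), Acan (aggrecan, a matrix proteoglycan), Calcrl (the receptor subunit for CGRP and adrenomedullin), Cav2 (a caveolin) and Syt4 (a synaptotagmin of dense-core vesicles). Neu4, also an OPC marker, was read at 909.8, 928 and 925 in mPFC and 1445, 1443 and 1439 in hippocampus, so that each group spanned under 20 units. Acan was read at 491, 465 and 470.1 in mPFC and 719.6, 762 and 752 in hippocampus, a difference of 0.65 ± 0.061 (adjusted p = 0.000554), 0.64 without library 3. Ttr was read at 703, 785 and 706 in mPFC and 1127, 1113 and 1244 in hippocampus, a difference of 0.67 ± 0.069 (adjusted p = 0.000835), 0.64 without library 3. The hippocampus libraries were above the mPFC libraries in all 14 genes, a condition of their choice.

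Of the 14 genes highest in mPFC relative to hippocampus, Lyz2 (lysozyme of myeloid cells) was read at 875, 946 and 844 in mPFC and 303, 282 and 300.3 in hippocampus, a log2 difference of -1.59 ± 0.07 (adjusted p = 1.47e-05), -1.62 without library 3. Fbln2, a matrix fibulin, was read at 1009, 1057 and 870.4 in mPFC and 385, 362 and 349.7 in hippocampus, a difference of -1.42 ± 0.082 (adjusted p = 4.99e-05), -1.50 without library 3. Gpnmb, a membrane glycoprotein of phagocytes, was read at 1032, 920.5 and 934 in mPFC and 482, 436 and 442 in hippocampus, a difference of -1.08 ± 0.071 (adjusted p = 7.58e-05), -1.11 without library 3. Aldh1l1, a folate enzyme used as an astrocyte marker, was read at 2662, 2627 and 2403 in mPFC and 1228, 1229.9 and 1242 in hippocampus, a difference of -1.05 ± 0.054 (adjusted p = 2.37e-05), -1.10 without library 3. In these genes hippocampus was low in every library. Serpinh1, the collagen chaperone HSP47, differed by -1.01 ± 0.10 (adjusted p = 0.00064), -1.11 without library 3, and Nwd1 by -0.91 ± 0.065 (adjusted p = 9.56e-05), -0.88 without library 3. Egr1, an immediate early transcription factor, was read at 15888, 14439 and 14798 in mPFC and 8489.7, 8460.1 and 8089.5 in hippocampus, a difference of -0.85 ± 0.05 (adjusted p = 4.99e-05), -0.86 without library 3. Gstm1 (glutathione transferase) differed by -0.80 ± 0.056 (adjusted p = 9.56e-05), -0.79 without library 3. Slc6a11 (the GABA transporter GAT3), Itga6 (a laminin receptor subunit), Mest (an imprinted gene), Gja1 (connexin 43), Smarcc1 and Igfbp2 (an IGF-binding protein) had log2 differences of -0.60 to -0.71. Mest was read at 4153, 4115 and 4342 in mPFC and 2602, 2567 and 2631 in hippocampus, and Igfbp2 at 2274, 2595 and 1843 in mPFC and 1473, 1430.3 and 1479 in hippocampus.

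**Figure D3:**
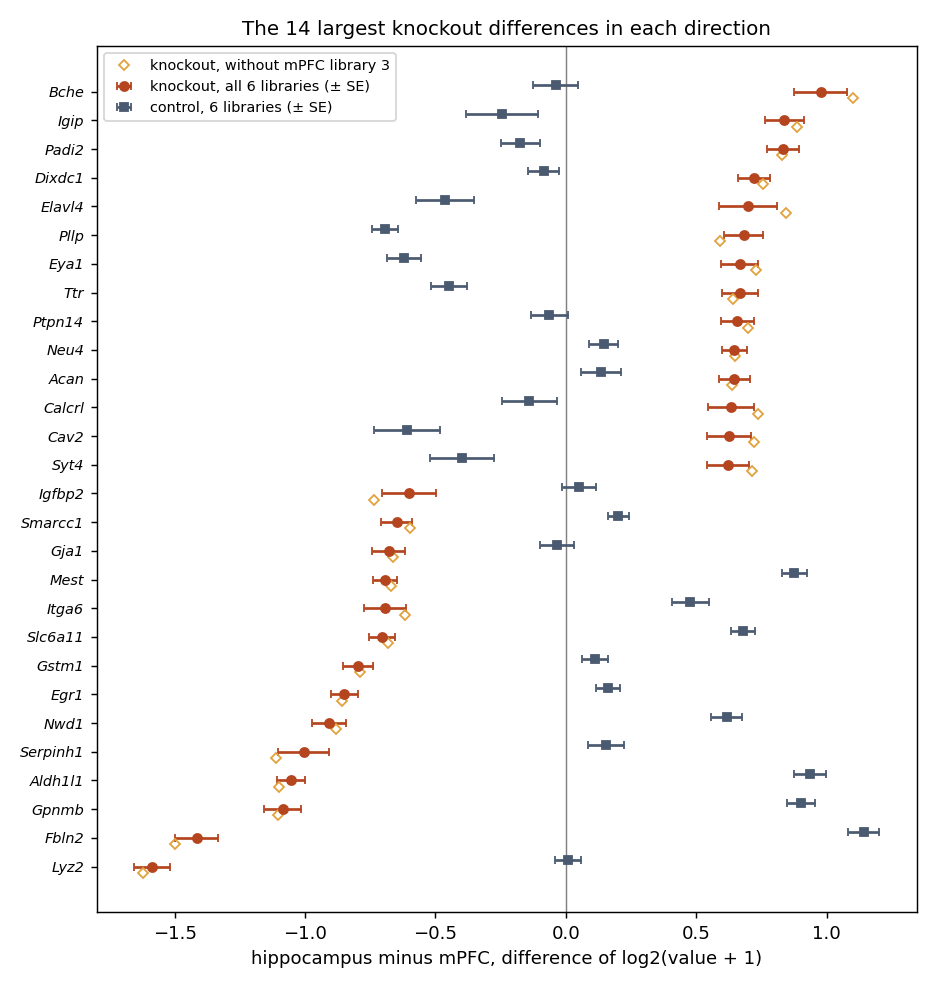
Hippocampus minus mPFC difference of log2(value + 1) for the 14 genes with the largest difference in each direction, with all 6 knockout libraries (circles, ± SE), without knockout mPFC library 3 (diamonds) and in the 6 control libraries as labelled (squares, ± SE). Knockout values run from 0.98 for Bche to -1.59 for Lyz2, and the control squares have the opposite sign in 12 of the 14 upper genes and 13 of the 14 lower genes. Of these opposite signs, the control difference was not called for Bche, Igip, Padi2, Dixdc1, Ptpn14, Calcrl, Lyz2, Serpinh1, Gstm1 and Igfbp2.

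Genes of committed and premyelinating cells were higher in hippocampus wherever they were called. In the list of genes of that stage, 14 of 16 members were tested and 7 (50%) were called, all higher in hippocampus, with a median log2 difference of 0.18. Without library 3 the count was 11 and none was higher in mPFC, and after the GC and length correction it was 9. Gpr17, a receptor that marks precursors committed to differentiation, was read at 28008, 27249 and 28126 in mPFC and 37037, 36577 and 36165 in hippocampus, a log2 difference of 0.40 ± 0.042 (adjusted p = 0.000867), 0.41 without library 3. Bcas1, a protein of newly formed oligodendrocytes, was read at 26691, 25434 and 26444 in mPFC and 31486, 33177 and 31578 in hippocampus, a difference of 0.29 ± 0.046 (adjusted p = 0.00565), 0.30 without library 3. Bmp4, a ligand that committed precursors make, was read at 802, 701 and 649 in mPFC and 1045, 992 and 1113 in hippocampus, a difference of 0.55 ± 0.083 (adjusted p = 0.00476), 0.48 without library 3. In these genes no library of a group reached the other. Fyn, a kinase needed for myelination, differed by 0.26 ± 0.042 (adjusted p = 0.00613), 0.25 without library 3, and Itpr2, an IP3 receptor of early oligodendrocytes, by 0.30 ± 0.049 (adjusted p = 0.00695), 0.33 without library 3. Enpp6 and Myrf, other marks of the stage, were not called with all 6 libraries (adjusted p = 0.264 and 0.148). Without library 3 Enpp6 was called at 0.23 (adjusted p = 2.72e-05) and Myrf at 0.10 (adjusted p = 0.0352). The summed level of the list was 87345 to 90188 in mPFC and 109252 to 111309 in hippocampus. Of the 7 called genes 4 had the same sign in the control libraries as labelled, and 2 had it in the cultures.

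All 19 OPC markers were tested and 7 (36.8%) were called, all higher in hippocampus. Of these 7, 2 had the same sign in the control libraries as labelled, and 2 had it in the cultures. Without library 3 there were 10 higher in hippocampus and 5 higher in mPFC, and after the GC and length correction 9 and 1. Nkx2-2, a homeobox factor needed for differentiation, was read at 2748, 2870.1 and 2426 in mPFC and 3950.2, 3916 and 3898 in hippocampus, a log2 difference of 0.55 ± 0.063 (adjusted p = 0.00128), 0.48 without library 3. Matn4, a matrix matrilin, was read at 149.5, 164 and 133 in mPFC and 267, 238 and 225 in hippocampus, a difference of 0.71 ± 0.11 (adjusted p = 0.00517), 0.63 without library 3. Lhfpl3, a membrane protein, differed by 0.37 ± 0.067 (adjusted p = 0.00995), 0.45 without library 3, with library 3 the highest of the mPFC libraries. The defining markers of the cell were abundant in every library. Pdgfra, the PDGF receptor used to define OPCs, was read at 40377, 40262 and 45229 in mPFC and 40522, 39741 and 40298 in hippocampus, and was not called (adjusted p = 0.5). Cspg4 (NG2) had a difference of 0.0023 ± 0.051, Olig2 -0.069 ± 0.057, Olig1 -0.04 ± 0.083 and Sox10 0.0092 ± 0.048, none of them called with all 6 libraries. Without library 3 Olig2 was called at -0.13 and Olig1 at -0.15, both higher in mPFC. For Olig1 library 3 was at 26145, against 32903 and 32970 in its replicates, and its transcript had a GC content of 61.1%.

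Myelin genes went both ways. Of 17 members 12 were tested, and 1 was called higher in hippocampus and 3 higher in mPFC, 3 and 5 without library 3, and 2 and 3 after the GC and length correction. Cldn11, a tight-junction protein of myelin, was read at 3620.5, 4146 and 3586 in mPFC and 4771, 4963 and 5091 in hippocampus, a log2 difference of 0.39 ± 0.063 (adjusted p = 0.00643), 0.35 without library 3. Car2 (carbonic anhydrase of oligodendrocytes) differed by -0.67 ± 0.091 (adjusted p = 0.00295), -0.66 without library 3 and Mag, a myelin glycoprotein, by -0.35 ± 0.073 (adjusted p = 0.0172), -0.42 without library 3. Mbp was at 5576, 5808 and 5195 in mPFC and 5197, 5113 and 5194 in hippocampus and was not called with all 6 libraries (adjusted p = 0.252), but was at -0.14 without library 3 (adjusted p = 0.00142). Mog, a mark of mature myelin, was at 6.34 to 11.9 in all 6 libraries.

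Markers of astrocytes and myeloid cells were mostly higher in mPFC. All 15 astrocyte markers were tested, 9 (60%) were called higher in mPFC and 3 (20%) higher in hippocampus, with counts of 4 and 9 without library 3, and 3 and 9 after the GC and length correction. Their summed level was 48954 to 49351 in mPFC and 41107 to 41252 in hippocampus, with no defining marker at 0. Beside Aldh1l1 above, Gja1, the gap-junction protein of astrocytes, was read at 764, 756 and 783 in mPFC and 468, 461 and 509.7 in hippocampus, a log2 difference of -0.68 ± 0.064 (adjusted p = 0.000557), -0.66 without library 3. Slc6a11 was read at 2214, 2242 and 2341 in mPFC and 1411, 1390.0 and 1364 in hippocampus, a difference of -0.71 ± 0.049 (adjusted p = 9.56e-05), -0.68 without library 3. Gfap, the intermediate filament of astrocytes, differed by -0.23 ± 0.052 (adjusted p = 0.0245), -0.28 without library 3, and the water channel Aqp4 by -0.30 ± 0.074 (adjusted p = 0.0333), -0.21 without library 3. The other 3 called members were higher in hippocampus. Agt (angiotensinogen) was read at 82.6, 104 and 81.1 in mPFC and 231, 213 and 219 in hippocampus, a difference of 1.31 ± 0.12 (adjusted p = 0.000398), 1.25 without library 3. S100b, a calcium-binding protein that oligodendrocyte cells also make, differed by 0.37 ± 0.053 (adjusted p = 0.00406), 0.40 without library 3, and Clu (clusterin) by 0.27 ± 0.066 (adjusted p = 0.0305), 0.22 without library 3. The list therefore held calls in both directions.

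Of 17 myeloid and microglial genes 16 were tested and 8 (50%) were called, all higher in mPFC. Tmem119, not among the 8, passed the filter on low values through mPFC libraries alone. All 8 had the opposite sign in the control libraries as labelled and the same sign in the cultures. Among them Lyz2 had a control difference of 0.0078, which was not called. Without library 3 the count was 10, and after the GC and length correction 7. The summed level was 3758 to 3780 in mPFC and 2226 to 2289 in hippocampus. Ctss (cathepsin S) was read at 194, 202 and 203 in mPFC and 105, 97.5 and 111 in hippocampus, a log2 difference of -0.93 ± 0.10 (adjusted p = 0.000807), -0.92 without library 3. Cd68, a lysosomal protein of phagocytes, differed by -0.93 ± 0.11 (adjusted p = 0.00128), -0.97 without library 3. Tyrobp, a signalling adaptor of microglia, was read at 67.9, 59.3 and 69.9 in mPFC and 23.5, 15.9 and 24.7 in hippocampus, a difference of -1.60 ± 0.20 (adjusted p = 0.00217), -1.55 without library 3. The defining marker Csf1r was read at 94.4, 81.0 and 77.0 in mPFC and 49.8, 62.6 and 49.4 in hippocampus, a difference of -0.64 ± 0.15 (adjusted p = 0.0278), -0.70 without library 3. Cx3cr1, P2ry12 and Tmem119, the receptors and surface protein of resting microglia, were at 3.62 to 77.0 in all 6 libraries and were not called with all 6 (adjusted p = 0.134, 0.353 and 0.105). Without library 3 Cx3cr1 was called higher in mPFC at -0.96 (adjusted p = 0.0274) and Tmem119 at -1.25 (adjusted p = 0.0308). After the GC and length correction P2ry12 was called higher in mPFC at -0.45 (adjusted p = 0.0481).

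In the list of mural cells and fibroblasts, 11 of 13 members were tested and 6 (54.5%) were called, all higher in mPFC, with 1 and 6 without library 3, and 1 and 6 after the GC and length correction. All 6 had the opposite sign in the control libraries as labelled, and only 1 had the same sign in the cultures. These are counts of signs alone. Col3a1, a fibrillar collagen, was read at 269, 243 and 254 in mPFC and 153, 139 and 142 in hippocampus, a log2 difference of -0.81 ± 0.088 (adjusted p = 0.000925), -0.82 without library 3, and Col1a1 differed by -1.04 ± 0.17 (adjusted p = 0.00633), -1.13 without library 3. Acta2, smooth muscle actin, was read at 73.8, 90.9 and 77.0 in mPFC and 43.4, 50.9 and 43.5 in hippocampus, a difference of -0.80 ± 0.15 (adjusted p = 0.0111), -0.82 without library 3. The pericyte receptor Pdgfrb differed by -0.76 ± 0.20 (adjusted p = 0.0419), -0.82 without library 3, while the pericyte gene Rgs5 was at 255, 266 and 286 in mPFC and 289.7, 283 and 287 in hippocampus and was not called (adjusted p = 0.445). The summed level of the list was 1203 to 1299 in mPFC and 946.8 to 1002 in hippocampus. Endothelial, ependymal and choroid, and blood markers had 4 tested members each and 1 call each, all higher in hippocampus. These were Kdr (VEGF receptor), at 0.56 ± 0.14 (adjusted p = 0.0324), 0.60 without library 3, Ttr, and the haemoglobin gene Hbb-bs, at 1.26 ± 0.24 (adjusted p = 0.0131), 1.18 without library 3. The endothelial list and the ependymal and choroid list each had 1 and 0 without library 3, and the blood list 2 and 0. After the GC and length correction these counts were the same. Of the defining markers, Cdh5 was at 0 in hippocampus library 5 and Hba-a1 at 0 in mPFC library 3. Cldn5, Pecam1 and Foxj1 were not called (adjusted p = 0.543, 0.646 and 0.258). The part of these other cells in the regional differences of the OPC genes was not tested.

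**Figure D4:**
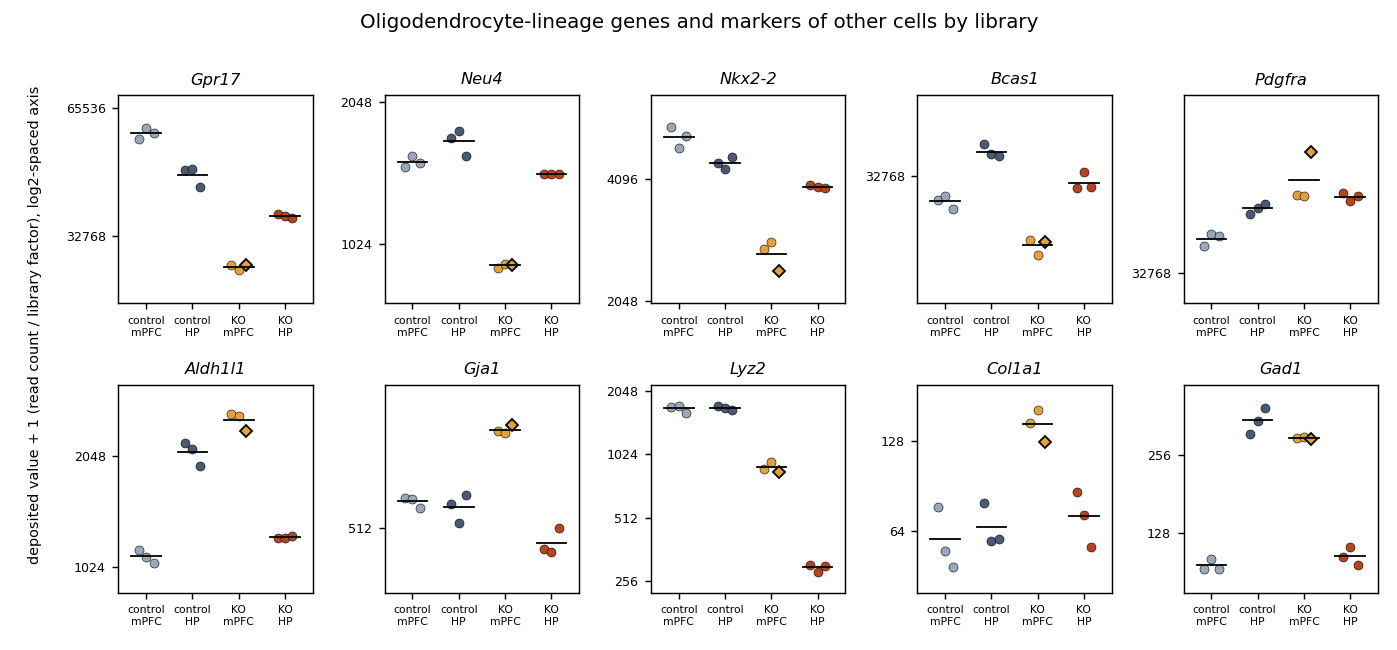
Deposited value + 1 of oligodendrocyte-lineage genes (upper row) and of genes that mark astrocytes, myeloid cells, fibroblasts and GABA neurons (lower row) in the 12 acutely isolated libraries, on a log2-spaced axis, by genotype and labelled region. HP is hippocampus, bars are group means, and diamonds mark knockout mPFC library 3. In the knockout libraries Gpr17, Neu4, Nkx2-2 and Bcas1 are higher in hippocampus, Pdgfra overlaps, and the 5 genes of the lower row are higher in mPFC.

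Genes of transmitter receptors, transport and metabolism held calls in both directions within a family. Slc6a11 and Gad1 are also in the astrocyte and neuron marker lists, and which cells of the bulk samples this RNA came from was not tested. Of 21 tested glutamate receptor subunits (of 25) 3 were called in each direction, 7 and 5 without library 3, and 1 and 4 after the GC and length correction. Gria1, an AMPA receptor subunit, was read at 228, 262 and 260.4 in mPFC and 147, 145 and 137 in hippocampus, a log2 difference of -0.80 ± 0.092 (adjusted p = 0.00128), -0.77 without library 3. Grm3, a metabotropic receptor, was read at 121, 106 and 105 in mPFC and 54.3, 55.1 and 51.4 in hippocampus, a difference of -1.03 ± 0.12 (adjusted p = 0.00147), -1.06 without library 3. Both were low in all hippocampus libraries. Gria2, the subunit that makes AMPA receptors impermeable to calcium, was read at 9304, 9031 and 10813 in mPFC and 12541, 12250 and 12200 in hippocampus, a difference of 0.35 ± 0.066 (adjusted p = 0.0127), 0.43 without library 3. After the GC and length correction Gria2 differed by 0.051 and was not called (adjusted p = 0.493). Gria4 differed by 0.30 ± 0.075 (adjusted p = 0.0354), 0.39 without library 3.

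Of 14 tested GABA receptor subunits (of 15), 3 were called higher in hippocampus and 1 higher in mPFC, 7 and 2 without library 3, and 1 and 3 after the GC and length correction, so the balance of the list turned with the correction. Gabrg3 was read at 88.5, 86.9 and 91.2 in mPFC and 50.7, 53.02 and 47.4 in hippocampus, a difference of -0.81 ± 0.12 (adjusted p = 0.00531), -0.79 without library 3. Gabra3 differed by 0.36 ± 0.10 (adjusted p = 0.0498), 0.50 without library 3. Among transporters and enzymes of glutamate and GABA, 19 of 20 members were tested, 7 (36.8%) were called higher in mPFC and 3 (15.8%) higher in hippocampus, 5 and 9 without library 3, and 2 and 7 after the GC and length correction. Glul, glutamine synthetase, was read at 8799, 8849 and 9103 in mPFC and 6819.6, 6838 and 6642 in hippocampus, a difference of -0.40 ± 0.042 (adjusted p = 0.000867), -0.38 without library 3. Slc1a2, the glutamate transporter GLT-1 of astrocytes, differed by -0.34 ± 0.062 (adjusted p = 0.0099), -0.28 without library 3. Slc1a1, the transporter EAAC1, was read at 5928, 5945 and 6573 in mPFC and 7841, 7703 and 7831 in hippocampus, a difference of 0.34 ± 0.052 (adjusted p = 0.00476), 0.39 without library 3, and was higher in every hippocampus library.

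Voltage-gated and potassium channel genes gave 6 calls among 24 tested of 25 members (25%), all higher in hippocampus. There were 12 without library 3 and 9 after the GC and length correction, when 1 other was higher in mPFC. Whether this RNA came from OPCs or from other cells was not tested. The sodium channel genes Scn1a, Scn2a and Scn3a, all on chromosome 2, were among the 6 calls. Scn3a was read at 148, 160.0 and 226 in mPFC and 343, 320.2 and 321 in hippocampus, a log2 difference of 0.90 ± 0.14 (adjusted p = 0.00599), 1.09 without library 3. Scn2a was read at 101, 119 and 121 in mPFC and 170.2, 171 and 159 in hippocampus, a difference of 0.55 ± 0.11 (adjusted p = 0.0128), 0.60 without library 3, and Scn1a differed by 0.42 ± 0.081 (adjusted p = 0.0138), 0.44 without library 3. Library 3 was the mPFC library nearest to hippocampus for all 3 of these genes. Kcnk2, a leak potassium channel, differed by 0.23 ± 0.055 (adjusted p = 0.0294), 0.23 without library 3.

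Synaptic adhesion genes gave 6 calls higher in hippocampus and 1 higher in mPFC among 30 tested. The counts were 12 and 9 without library 3, and 2 and 2 after the GC and length correction. Cadm2, a cell adhesion molecule, was read at 3435, 3491 and 3884 in mPFC and 4615, 4622 and 4493 in hippocampus, a difference of 0.35 ± 0.056 (adjusted p = 0.00618), 0.40 without library 3, and of 0.051 after the correction (adjusted p = 0.587). Lrrtm4, a leucine-rich postsynaptic protein, differed by 0.37 ± 0.078 (adjusted p = 0.0188), 0.44 without library 3, and by 0.11 after the correction (adjusted p = 0.223). Adgrl2, a latrophilin, was higher in mPFC, at -0.26 ± 0.06 (adjusted p = 0.0243), -0.22 without library 3, and was called under the correction as well (adjusted p = 0.000453).

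Guidance genes were called in both directions. The shares over all tested genes were 6.55% higher in hippocampus and 4.78% higher in mPFC. Without library 3 those shares were 23.3% and 23.4%. Of 20 tested ephrins and Eph receptors (of 22), 1 was called higher in hippocampus (5%) and 3 higher in mPFC (15%), 1 and 3 without library 3, and 1 and 3 after the GC and length correction. Ephb1 was read at 654, 619 and 666 in mPFC and 508, 534 and 538 in hippocampus, a log2 difference of -0.29 ± 0.062 (adjusted p = 0.0188), -0.27 without library 3, and Epha4 differed by 0.31 ± 0.071 (adjusted p = 0.0249), 0.33 without library 3. Of 42 tested semaphorins, plexins, netrins, slits and their receptors (of 43), 4 were called higher in hippocampus (9.5%) and 3 higher in mPFC (7.1%), 7 and 10 without library 3, and 5 and 7 after the GC and length correction. Ntn4, a netrin of basement membranes, was read at 181, 177 and 173 in mPFC and 92.3, 96.5 and 90.9 in hippocampus, a difference of -0.92 ± 0.094 (adjusted p = 0.000807), -0.93 without library 3. Sema3d, a secreted semaphorin, was read at 1105, 1159.5 and 1351 in mPFC and 1662, 1656 and 1673 in hippocampus, a difference of 0.47 ± 0.074 (adjusted p = 0.00565), 0.56 without library 3, and Sema5a differed by 0.34 ± 0.061 (adjusted p = 0.00988), 0.38 without library 3.

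Growth and patterning signals held calls in both directions. Over all tested genes 6.55% were called higher in hippocampus and 4.78% higher in mPFC. Among genes of Wnt feedback and its targets, 11 of 15 were tested, 2 were called higher in hippocampus and 1 higher in mPFC, 2 and 2 without library 3, and 2 and 1 after the GC and length correction. Rnf43, a ubiquitin ligase that removes Wnt receptors, was read at 51.1, 64.2 and 54.7 in mPFC and 140.3, 129 and 125 in hippocampus, a log2 difference of 1.21 ± 0.13 (adjusted p = 0.000867), 1.18 without library 3. Lgr5, a receptor for R-spondins, was read at 331, 369 and 389 in mPFC and 520.5, 514 and 559 in hippocampus, a difference of 0.55 ± 0.079 (adjusted p = 0.00394), 0.60 without library 3. Both were higher in all 3 hippocampus libraries. Dkk3, a secreted Dickkopf-family protein, differed by -0.46 ± 0.092 (adjusted p = 0.0151), -0.45 without library 3. Of 15 tested BMP pathway genes (of 19), 4 (26.7%) were called higher in hippocampus and 1 higher in mPFC, 7 and 1 without library 3, and 5 and 2 after the GC and length correction. Beside Bmp4, the ligand Bmp2 was read at 14.8, 9.88 and 12.2 in mPFC and 29.0, 23.3 and 26.7 in hippocampus, a difference of 1.05 ± 0.25 (adjusted p = 0.027), 1.06 without library 3. The receptor Bmpr2 was read at 2368, 2284 and 2963 in mPFC and 3397, 3586 and 3553 in hippocampus, a difference of 0.48 ± 0.088 (adjusted p = 0.0113), 0.59 without library 3. Id2, an inhibitor of bHLH factors that BMP signalling induces, differed by 0.23 ± 0.052 (adjusted p = 0.0218), 0.28 without library 3, while its relative Id1 differed by -0.36 ± 0.093 (adjusted p = 0.0364), -0.45 without library 3. In the Notch pathway 18 of 19 were tested, with 2 calls higher in hippocampus and 3 higher in mPFC, 3 and 8 without library 3, and 4 and 3 after the GC and length correction. The Fringe enzymes Mfng and Lfng, which add sugars to Notch receptors, differed by -0.76 ± 0.12 (adjusted p = 0.00606), -0.80 without library 3, and at -0.45 ± 0.095 (adjusted p = 0.0179), -0.56 without library 3. The ligand Jag1 differed by 0.28 ± 0.065 (adjusted p = 0.0267), 0.29 without library 3. Of 18 tested growth factor receptors (of 20), Egfr and Pdgfrb (11.1%) were called, both higher in mPFC. The share called in either direction was 11.3% over all genes. The receptors had 2 and 5 without library 3, and 0 and 4 after the GC and length correction. Egfr was read at 360.0, 371 and 426 in mPFC and 209, 226 and 219 in hippocampus, a difference of -0.82 ± 0.086 (adjusted p = 0.000867), -0.74 without library 3.

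Immediate early genes, which cells switch on within minutes of a stimulus, gave 4 calls higher in mPFC and 2 higher in hippocampus among 24 tested of 26. These were 16.7% and 8.3%, beside 4.78% and 6.55% over all tested genes. The counts were 4 and 8 without library 3, and 5 and 6 after the GC and length correction. Beside Egr1, Fos was read at 1077, 1041 and 1021 in mPFC and 809, 732 and 725 in hippocampus, a log2 difference of -0.47 ± 0.063 (adjusted p = 0.00261), -0.49 without library 3, and Arc at 422, 427 and 418 in mPFC and 263, 274 and 304 in hippocampus, a difference of -0.59 ± 0.077 (adjusted p = 0.00233), -0.60 without library 3. Egr3 differed by 0.39 ± 0.072 (adjusted p = 0.0112), 0.40 without library 3 and Fosl2 by 0.38 ± 0.071 (adjusted p = 0.0119), 0.42 without library 3, both higher in hippocampus. Of 15 MAP kinase output genes, Spred1, an inhibitor of the pathway, was called higher in hippocampus, at 0.30 ± 0.064 (adjusted p = 0.019), 0.36 without library 3, and was not called after the GC and length correction (0.11, adjusted p = 0.0805). Etv4 and Etv5, transcription factors that ERK signalling induces, were higher in mPFC, at -0.19 ± 0.051 (adjusted p = 0.0411), -0.21 without library 3, and at -0.18 ± 0.043 (adjusted p = 0.0301), -0.17 without library 3. After that correction Etv4 differed by -0.09 and was not called (adjusted p = 0.298). Of the 15 genes 6.7% were called higher in hippocampus and 13.3% higher in mPFC with all 6 libraries. Their counts were 2 and 3 without library 3, and 2 and 2 after the GC and length correction. Of 13 tested granins and dense-core vesicle genes (of 14), Syt4 was higher in hippocampus and Nptx2, a secreted pentraxin, higher in mPFC, at -0.62 ± 0.15 (adjusted p = 0.0294), -0.67 without library 3. Each was 7.7% of the tested members, near the shares over all tested genes. This list had 3 and 3 without library 3, and 3 and 4 after the GC and length correction. Of 35 tested matrix genes (of 36), 6 (17.1%) were called higher in hippocampus and 5 (14.3%) higher in mPFC. The matrix counts were 12 and 12 without library 3, and 13 and 6 after the GC and length correction. Fbln5, a fibulin of elastic fibres, was read at 509, 543 and 491 in mPFC and 713, 678 and 715 in hippocampus, a difference of 0.45 ± 0.065 (adjusted p = 0.00394), 0.42 without library 3, opposite in direction to Fbln2. Sparcl1 differed by -0.35 ± 0.052 (adjusted p = 0.00469), -0.30 without library 3 and Tnc (tenascin C) by -0.23 ± 0.048 (adjusted p = 0.0166), -0.22 without library 3, and Hapln1, a link protein of hyaluronan, was read at 29.5, 31.6 and 43.6 in mPFC and 15.4, 5.30 and 12.8 in hippocampus, a difference of -1.65 ± 0.36 (adjusted p = 0.0219), -1.49 without library 3.

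Lists of ribosomal, glycolysis, cholesterol and cell cycle genes gave calls that were all higher in mPFC with all 6 libraries, and the counts moved with library 3 and with the correction for GC and length. Of 77 tested cytosolic ribosomal protein genes (of 81), 26 (33.8%) were called higher in mPFC and none higher in hippocampus, with a median log2 difference of -0.22. Without library 3 the counts were 74 higher in mPFC and 1 higher in hippocampus. After the GC and length correction 20 were called higher in mPFC and the median was -0.087. Rpl21 was read at 13069, 14234 and 13760 in mPFC and 10675, 10732 and 10650 in hippocampus, a difference of -0.36 ± 0.046 (adjusted p = 0.00231), -0.35 without library 3, and Rps15 differed by -0.42 ± 0.054 (adjusted p = 0.00217), -0.47 without library 3, but was not called after the correction (adjusted p = 0.0647). In the control libraries as labelled the median of this list was -0.26, so it did not turn sign as the regional factors did.

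Of 19 tested glycolysis and hypoxia genes (of 20), 4 were called higher in mPFC, 1 and 14 without library 3, and 0 and 5 after the GC and length correction. Pgk1 was read at 11127, 10620 and 10440 in mPFC and 8915, 8480.2 and 8554 in hippocampus, a difference of -0.31 ± 0.046 (adjusted p = 0.00451), -0.33 without library 3, and Gapdh differed by -0.33 ± 0.06 (adjusted p = 0.00995), -0.39 without library 3. Of 25 cholesterol synthesis genes, 5 were called higher in mPFC, among them Fdft1 (squalene synthase), at -0.23 ± 0.045 (adjusted p = 0.0145), -0.24 without library 3, and Dhcr7, the last enzyme of the pathway, at -0.26 ± 0.052 (adjusted p = 0.0145), -0.31 without library 3. This list had 8 and 13 without library 3, when 23.3% and 23.4% of all genes were called. After the GC and length correction it had 0 and 4, beside 7.68% and 7.75% of all genes. Of 35 cell cycle genes, 6 were called higher in mPFC, 1 and 18 without library 3, and 0 and 14 after the GC and length correction. Ube2c, a ubiquitin carrier of mitotic exit, was read at 3716, 3776 and 3601 in mPFC and 2994, 2968 and 2944 in hippocampus, a difference of -0.32 ± 0.044 (adjusted p = 0.00346), -0.34 without library 3, and Cdc20 differed by -0.28 ± 0.062 (adjusted p = 0.0212), -0.35 without library 3.

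Calls among stress genes were higher in mPFC, except for 2 p53 targets. Beside 11.3% of all genes, the share called was 8.7% for the integrated stress list, 10.5% for p53 targets and 8.3% for interferon genes. Slc7a11, the cystine transporter, was read at 303, 323 and 443 in mPFC and 198, 183 and 175 in hippocampus, a log2 difference of -0.92 ± 0.13 (adjusted p = 0.00431), -0.75 without library 3, and library 3 was the highest of all. Among 23 tested genes of the integrated stress and unfolded protein responses, the only other call was Mthfd2, a mitochondrial folate enzyme, at -0.24 ± 0.058 (adjusted p = 0.0288), -0.28 without library 3, so 8.7% were called higher in mPFC. That list had 1 and 13 without library 3, and 1 and 7 after the GC and length correction. Of 10 tested chaperones (of 11), 3 (30%) were called higher in mPFC, against 4.78% of all genes, including Bag3, at -0.55 ± 0.11 (adjusted p = 0.0145), -0.53 without library 3, and Hspa8, at -0.23 ± 0.045 (adjusted p = 0.0151), -0.24 without library 3. The chaperones had 0 and 5 without library 3, and 0 and 5 after the GC and length correction. Of 19 p53 targets, Mdm2 and Trp53inp1 were called higher in hippocampus, at 0.25 ± 0.059 (adjusted p = 0.0288), 0.28 without library 3, and at 0.34 ± 0.089 (adjusted p = 0.0388), 0.46 without library 3. Trp53inp1 was not called after the GC and length correction (adjusted p = 0.0918). The p53 list had 6 and 6 without library 3, when 23.3% and 23.4% of all genes were called. It had 2 and 0 after the GC and length correction. Of 12 tested interferon genes (of 18) Ifi27 was called, at -0.37 ± 0.10 (adjusted p = 0.0484), -0.49 without library 3, with 3 and 2 without library 3, and 0 and 0 after the GC and length correction.

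The BAF and PBAF subunits were called at a share near the 11.3% of all genes. Of 30 tested subunits 3 (10%) were called, all higher in mPFC, namely Smarcc1, the neuronal actin-related subunit Actl6b and Bcl11a. Actl6b was read at 57.0, 51.4 and 47.6 in mPFC and 29.9, 24.4 and 35.6 in hippocampus, a log2 difference of -0.79 ± 0.19 (adjusted p = 0.0281), -0.85 without library 3. The subunits had 3 and 11 without library 3, and 1 and 3 after the GC and length correction.

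**Figure D5:**
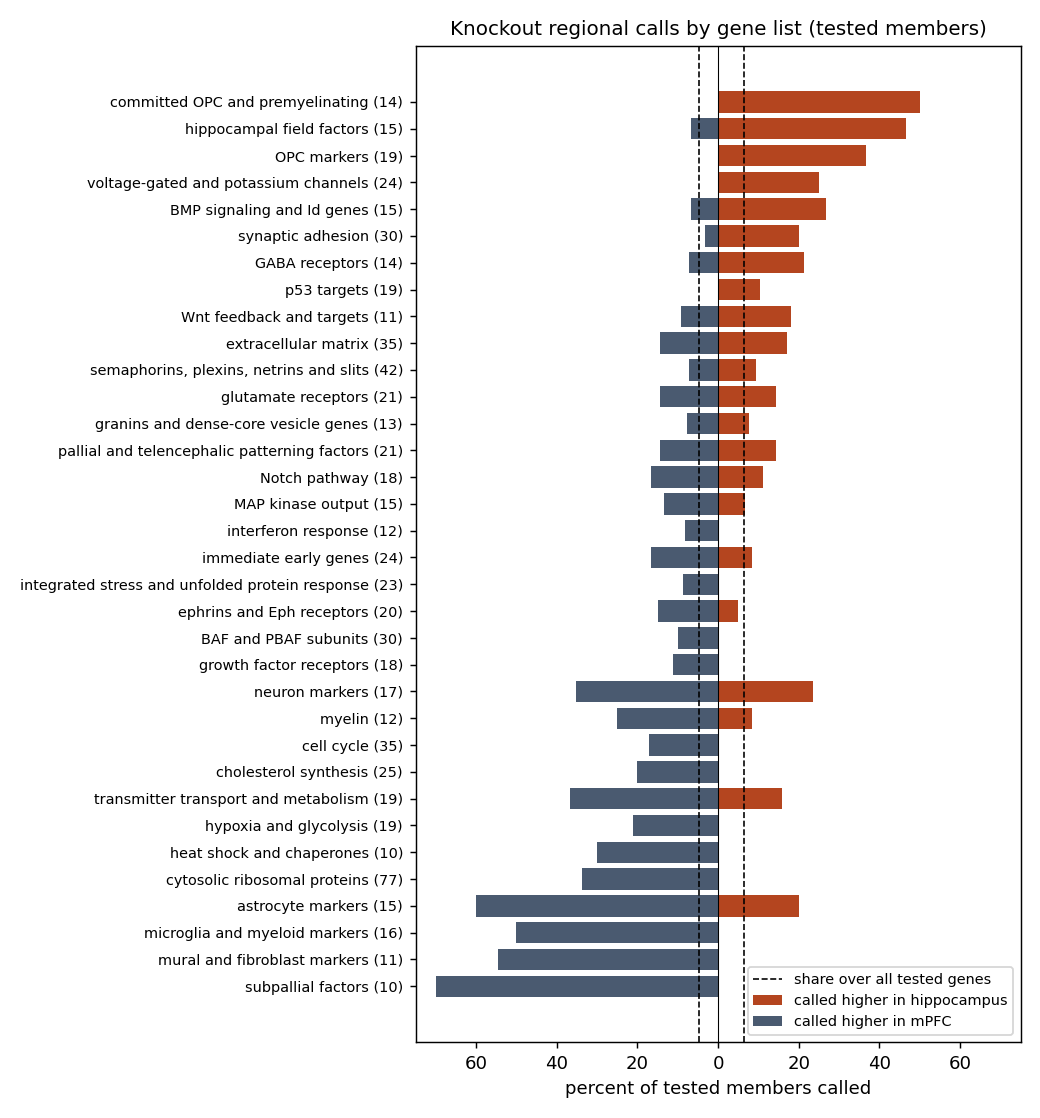
Percent of tested members of each gene list called higher in hippocampus (right) or higher in mPFC (left) in knockout OPCs, for the lists with at least 10 tested members, whose number is in brackets. Dashed lines give the shares over all 13536 tested genes, 6.55% and 4.78%. Subpallial factors reach 70% higher in mPFC, and committed OPC genes 50% higher in hippocampus. The subpallial bar covers the 10 of 18 members that passed the filter, Sp9 and Dlx5 through mPFC libraries alone. It is therefore not support for a direction of that list.

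The regional difference of the knockout was tested against that of the controls in the fit of all 12 acute libraries, with the control regions as labelled. The difference of differences passed for 3415 of 13985 genes (24.4%), 1650 above 0 and 1765 below 0, and for 5285 (37.8%) without knockout mPFC library 3. For Neurod1 the difference of differences was 7.97 ± 0.43, for Msx1 5.59 ± 0.43, for Dlx2 -5.24 ± 0.32 and for Dlx1 -4.91 ± 0.25. The knockout and control differences had the same sign for Bcas1 (0.29 ± 0.046 and 0.23), Itpr2 (0.30 ± 0.049 and 0.30) and Ube2c (-0.32 ± 0.044 and -0.30), and their difference of differences did not pass (adjusted p = 0.454, 0.943 and 0.882). Smarcc1 had a control difference of 0.20 and a difference of differences of -0.85 ± 0.069. Lyz2 averaged 1696 and 1705 in the libraries labelled control mPFC and control hippocampus, above every knockout library, with a control difference of 0.0078 and a difference of differences of -1.59 ± 0.08. Gja1 had a control difference of -0.035 and a difference of differences of -0.64 ± 0.086. The larger values of the regional factors combine opposite signs in the 2 genotypes and cannot be told apart from the order of the control labels.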

How the data were processed

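The 6 libraries compared were bulk RNA-seq of immunopanned OPCs, 3 a group, grouped by their titles. The deposited table held a scaled signal, a read count per gene divided by 1 factor per library. The submitters' processing notes name HISAT, Bowtie2, DESeq2 and GRCm38.p6, with no roles. In all 6 libraries 100% of values were whole multiples of what 1 read is worth (tolerance 1e-06), and edgeR 4.0.16 on the recovered reads (quasi-likelihood, TMM) called 1576 genes. The libraries held 19010442 to 22128687 reads and 16269 to 16548 detected genes. Of 22064 entries 3600 had no value and were not used.

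The main test was limma 3.58.1 (trend, R 4.3.3) on log2(value + 1), for genes at 10 or more in at least 3 libraries, with Benjamini-Hochberg adjustment over all of them. The scripts were tested on simulated data. Genes were named by rule. These were Smarcc1, the Y-linked genes, the 14 largest differences in each direction (called with and without mPFC library 3, groups not overlapping, higher mean at or above 661.3, the median level of tested genes), the 2 to 4 called members of each list with the smallest p, and defining markers. Other uncalled factors were chosen after their values were seen. Members, lists and tests were chosen with earlier results of these data known. The GC and length correction, a lowess of each library's deviation on transcript GC and then length with a span of 0.3, was chosen after seeing the data, as was leaving out control libraries. Transcript GC and length and gene positions are from GENCODE on GRCm38, and promoters are from RefSeq on GRCm38.p6. Culture values come from tables normalized separately and are set beside the others with no test. Mitochondrially encoded genes were not analysed here. Results for a few genes are not reported here.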

Additional observations from a re-analysis of the deposited data

Results flagged for a closer look

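The regional difference differed between the genotypes, by the test of the difference of differences in the fit of 12 libraries, for 3415 of 13985 genes (limma, adjusted p under 0.05). Of the 142 named genes called between the knockout regions, 128 were among them, 58 with a value above 0 and 70 below 0. These 142 genes were chosen for a called knockout difference, which is itself part of the difference of differences. The share that passed was therefore raised by the choice, and is not to be read beside that of all genes. Each value below is the knockout hippocampus minus mPFC difference less the same difference in the control libraries as labelled, on the log2(value + 1) scale. A value above 0 means that the difference was more toward hippocampus in the knockout. Every value rests on the region labels of the control libraries, which ran against the knockout and culture libraries, and why they did was not tested.

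Among regional transcription factors, values above 0 were Neurod1 7.97, Msx1 5.59, Nr2f2 2.81, Zic1 2.26, Zic2 0.86, Dmrta1 0.82, Prox1 0.77, Tcf7l2 0.67, Sox5 0.39 and Nfia 0.35. The values below 0 were Dlx2 -5.24, Sp9 -5.15, Dlx1 -4.91, Sp8 -4.50, Dlx5 -4.49, Six3 -2.75, Gsx2 -1.58, Meis2 -0.71, Bcl11a -0.62 and Lmo4 -0.41. Among neuronal genes, values above 0 were Slc17a7 4.0, Stmn2 3.12, Elavl4 1.16, Dcx 0.82 and Syt4 1.02. Those below 0 were Gad2 -3.65, Gad1 -3.34, Calb2 -2.07, Camk2a -0.79 and Nptx2 -0.83. Among oligodendrocyte-lineage genes, values above 0 were Matn4 1.84, Pllp 1.38, Bmp4 0.80, Nkx2-2 0.76, Gpr17 0.72, Lhfpl3 0.55, Cldn11 0.52 and Neu4 0.50. Below 0 were Mag -1.45 and Car2 -1.05. Among markers of other cells and the sex-linked gene, values above 0 were Agt 2.50, Gfap 1.18, Clu 1.14, Ttr 1.11, Kdr 1.0 and S100b 0.60. Negative values were found for Tyrobp -2.36, Acta2 -2.04, Gpnmb -1.99, Aldh1l1 -1.99, Lyz2 -1.59, Cd68 -1.53, Pdgfrb -1.50, Ctss -1.48, Slc6a11 -1.39, Csf1r -1.37, Hbb-bs -1.26, Kdm5d -1.24, Col1a1 -1.20, Col3a1 -1.14, Gja1 -0.64 and Aqp4 -0.43.

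Among receptors, transporters, channels and adhesion genes, values above 0 were Scn3a 1.97, Scn2a 1.27, Gabra3 0.74, Scn1a 0.69, Lrrtm4 0.56, Slc1a1 0.44, Kcnk2 0.43 and Gria4 0.37. The values below 0 were Gabrg3 -1.67, Grm3 -1.0, Gria1 -0.68, Adgrl2 -0.60, Glul -0.53 and Slc1a2 -0.30. Among guidance, growth factor and patterning signals, values above 0 were Rnf43 2.99, Bmp2 1.29, Id2 0.89, Sema3d 0.82, Lgr5 0.71, Bmpr2 0.62 and Jag1 0.35. Those below 0 were Ntn4 -1.44, Egfr -1.31, Mfng -1.16, Ephb1 -0.88, Lfng -0.88, Dkk3 -0.50 and Sema5a -0.25. Among immediate early, MAP kinase and matrix genes, values above 0 were Fbln5 1.39, Egr3 0.76, Fosl2 0.57, Acan 0.51 and Spred1 0.29. Below 0 were Fbln2 -2.56, Arc -1.54, Tnc -1.23, Serpinh1 -1.16, Egr1 -1.01, Sparcl1 -0.69, Etv4 -0.52 and Etv5 -0.35. Among metabolic, stress and remaining genes, values above 0 were Eya1 1.29, Cav2 1.23, Igip 1.08, Bche 1.02, Padi2 1.01, Dixdc1 0.81, Calcrl 0.77, Ptpn14 0.72 and Mdm2 0.25. Negative values were found for Slc7a11 -1.63, Mest -1.57, Nwd1 -1.52, Bag3 -1.31, Itga6 -1.17, Actl6b -0.99, Gstm1 -0.91, Smarcc1 -0.85, Ifi27 -0.69, Igfbp2 -0.65, Dhcr7 -0.55, Mthfd2 -0.35, Pgk1 -0.32, Fdft1 -0.31, Rpl21 -0.29 and Gapdh -0.28.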

How the results depend on the processing

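The count of 1533 called genes stayed within 1.5 times under other pseudocounts (1521 and 1567), no filter (1327 of 17943 genes), a minimum of 50 (1508), median-of-ratios scaling (1547), quantile normalization (1503), robust variance estimates (1493), the fit on 12 libraries (2129), edgeR (1576) and the GC and length correction (2055). It moved to 6706 with library weights, where mPFC library 3 had a weight of 0.138, and to 3202 with the GC and length correction and library 3 left out. Leaving out 1 library in turn gave 339 to 6314 calls, the highest without mPFC library 3. The share of calls that were higher in hippocampus was 57.8%, and 49.4%, 49.9% and 49.8% with library weights, without library 3 and with the GC and length correction. Without library 3 no named call was lost. Calls lost without at least 1 other library were Acta2, Actl6b, Adgrl2, Aqp4, Bag3, Bcl11a, Bmp2, Bmpr2, Cdc20, Clu, Csf1r, Dcx, Dhcr7, Dkk3, Dlx5, Egr3, Epha4, Ephb1, Etv4, Etv5, Fdft1, Fosl2, Fyn, Gabra3, Gad2, Gapdh, Gfap, Gria2, Gria4, Hapln1, Hbb-bs, Hspa8, Id1, Id2, Ifi27, Igfbp2, Itpr2, Jag1, Kcnk2, Kdm5d, Kdr, Lfng, Lhfpl3, Lmo4, Lrrtm4, Mag, Mdm2, Mthfd2, Nfia, Nptx2, Pdgfrb, Prox1, Scn1a, Scn2a, Sema5a, Slc17a7, Slc1a2, Sox5, Spred1, Tnc and Trp53inp1. Under the GC and length correction without library 3, the differences of Nfia (-0.0056), Gria2 (-0.0071) and Cadm2 (-0.028) turned below 0. The cause was not tested.

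A replicate block on the number in the sample descriptions gave 996 calls, 606 higher in hippocampus and 390 higher in mPFC. Deviations of same-numbered libraries had correlations of 0.019, 0.095 and -0.052 across genes, so the numbers were not taken to pair the libraries. In the block 19 of the 142 named calls were lost.

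The knockout minus control count of 3415 was 3377 to 3446 under other pseudocounts, 3190 with no filter, 3415 with median-of-ratios scaling and 4072 with the replicate block. With 1 library left out it was 2423 to 5285, the highest without knockout mPFC library 3, and 4563 without control hippocampus library 3. At most 8 of the 137 named genes past this threshold lost it when 1 library was left out. Genes under a value of 10 were not tested.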
